A study of Mus musculus with 6 samples.

Results

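The constitutive proteasome genes analysed here were the protein-coding mouse genes whose symbol is Psma, Psmb, Psmc or Psmd followed by a number, without the immunoproteasome and thymoproteasome genes Psmb8, Psmb9, Psmb10 and Psmb11. This naming rule gave 35 of the 28987 genes measured. They comprised 8 alpha and 7 beta subunits of the 20S core, 6 ATPases of the 19S regulatory particle and 14 non-ATPase names, of which 11 are integral 19S subunits and 3 (Psmd5, Psmd9 and Psmd10) encode chaperones that help to assemble the base of the particle. RNA was sequenced from sorted bone marrow cells of C57BL/6 mice that model myelodysplastic syndrome through mutations of CBL and RUNX1, so every group carried both mutations and no unmutated control was analysed here. The mice had received vehicle or Mdivi-1, a compound known as a blocker of Drp1, the GTPase of mitochondrial fission. Hematopoietic stem and progenitor cells (HSCP), enriched by CD117 and then sorted for the mutant clone, gave 1 library with vehicle and 1 with Mdivi-1. Mutant Ly6G+ myeloid cells, sorted by flow cytometry, gave 2 libraries with each. The sources used here give no age, dose or duration of treatment and do not say how the mutant alleles were made. Marrow was taken from individual mice, but no label links a library with one animal. P-values therefore measure only the spread between these libraries, which may be technical.

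The 26S proteasome degrades proteins that carry ubiquitin chains. Its 20S core is a barrel of stacked alpha and beta rings. The alpha rings form the gate, and the catalytic sites lie on the beta subunits Psmb5 (chymotrypsin-like), Psmb6 (caspase-like) and Psmb7 (trypsin-like), whose places the interferon-inducible subunits Psmb8, Psmb9 and Psmb10 can take. The 19S particle binds ubiquitin, removes it, unfolds the substrate with its ring of ATPases and feeds it into the core. When proteasome activity is short, the transcription factor Nfe2l1 raises the transcription of subunit genes through antioxidant response elements. In granulocytes, constitutive and interferon-inducible core subunits are both present, and the complex turns over short-lived regulators of survival.

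RefSeq promoter windows on GRCm38.p6 were searched for 28 of the 35 genes, 30 windows in all. Each ran from 250 bases before to 50 bases after an annotated start site. The other 7 genes, Psma8 among them, were not searched, which does not show that they lack a RefSeq window. The core of the antioxidant response element, TGACNNNGC searched on both strands, occurred in 5 of these 30 windows, or 16.7%, against 12.4% of 32851 windows of the same length. The CCAAT box, searched as CCAAT on both strands, occurred in 11 of 30, or 36.7%, against 37.4% of all windows, and none of these 11 held the element core. The element core was in the windows of Psmb5, Psmb6, Psmc6, Psmd9 and Psmd12. The upstream 250 bases are shown for Psmb5 and Psmb6, both catalytic subunits, and for Psmd12, the proteasome gene with the lowest adjusted p for Mdivi-1 in Ly6G+ cells. They lie at chr14:54617996-54618245 on the minus strand, chr11:70525107-70525356 on the plus strand and chr11:107479278-107479527 on the plus strand. Each is written 5′ to 3′ in the direction of the gene, ending at the base before the start site, with the match to the element in capitals.
Psmb5: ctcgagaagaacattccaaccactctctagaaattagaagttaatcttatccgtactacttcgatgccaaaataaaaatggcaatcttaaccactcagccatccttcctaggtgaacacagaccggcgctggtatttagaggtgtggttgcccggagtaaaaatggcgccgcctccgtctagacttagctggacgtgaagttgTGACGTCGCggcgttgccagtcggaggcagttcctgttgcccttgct
Psmb6: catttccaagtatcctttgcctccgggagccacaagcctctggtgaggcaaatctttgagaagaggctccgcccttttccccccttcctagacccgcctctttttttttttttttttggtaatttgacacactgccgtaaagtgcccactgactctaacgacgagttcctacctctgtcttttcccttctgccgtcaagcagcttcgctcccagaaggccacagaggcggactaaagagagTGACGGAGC
Psmd12: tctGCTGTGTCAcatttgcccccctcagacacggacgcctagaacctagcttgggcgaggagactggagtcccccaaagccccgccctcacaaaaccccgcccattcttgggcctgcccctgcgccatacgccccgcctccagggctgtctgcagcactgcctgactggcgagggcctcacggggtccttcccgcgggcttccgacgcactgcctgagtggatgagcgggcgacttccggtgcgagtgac
Counted from the start site, the match began at position -47 in Psmb5, as TGACGTCGC, and at position -9 in Psmb6, as TGACGGAGC. In Psmd12 it began at position -247 and lay on the opposite strand, read here as GCTGTGTCA. A match describes the letters of a window and is not a measured binding site.

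The files hold TPM, a share of a library's transcripts that is corrected for transcript length and keeps no read depth. The summed TPM of the 6 libraries lay between 963243.1 and 979168.3, and 11456 to 11930 genes reached 1 TPM in each. Kit, which encodes CD117, was at 72.2 and 64.9 TPM in the vehicle and Mdivi-1 HSCP libraries and at 8.73 to 14.1 TPM in the Ly6G+ libraries. Ly6g was at 642 to 840 TPM in the Ly6G+ libraries, and at 187 and 90.1 TPM in HSCP, so the HSCP libraries also held neutrophil transcripts. In bulk libraries such as these, fewer cells of a type and less RNA per cell cannot be told apart.

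Proteasome genes were abundant. A mean of at least 50 TPM over the 6 libraries was reached by 30 of the 35, against 9.32% of all genes in the table, and 34 were at 1 TPM or more in every library. The most abundant alpha subunit was Psma7, at 355 and 374 TPM in HSCP with vehicle and Mdivi-1, at 209.8 and 224 TPM in the Ly6G+ vehicle libraries and at 233 and 232 TPM with Mdivi-1. Psmb3, a structural subunit, led the beta group at 308 and 345 TPM in HSCP, 226 and 219 TPM in Ly6G+ cells with vehicle, and 206 and 196 TPM in those with Mdivi-1. In both genes every HSCP library lay above every Ly6G+ library.

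Mean levels over the 6 libraries, which are corrected for transcript length, ran from 92.2 TPM (Psma5) to 271 TPM (Psma7) among alpha subunits other than Psma8, and from 132 TPM (Psmb5) to 250.1 TPM (Psmb3) among beta subunits. They ran from 68.9 TPM (Psmc2) to 130.2 TPM (Psmc3) among ATPases, and from 54.9 TPM (Psmd12) to 109 TPM (Psmd13) among integral non-ATPase subunits other than Psmd8. These ranks are of means over both populations, and some differ within one. The lowest beta subunit in HSCP was Psmb7 (202 TPM), and the lowest integral non-ATPase subunit other than Psmd8 was Psmd11 in HSCP (66.2 TPM) and Psmd7 in Ly6G+ cells (45.2 TPM). Psmc3 was at 170.2 and 187 TPM in HSCP, 107 and 108 TPM in Ly6G+ cells with vehicle, and 103 and 106 TPM in those with Mdivi-1. Psmc2, the lowest ATPase by the mean of all libraries and in HSCP, was at 83.0 and 89.5 TPM in HSCP, 58.2 and 56.3 TPM in Ly6G+ cells with vehicle, and 60.4 and 66.2 TPM in those with Mdivi-1. Over the 4 Ly6G+ libraries Psmc1 had the lower mean (58.4 TPM, against 60.3 TPM for Psmc2). Psmd13, a lid subunit, had the highest mean of the non-ATPase genes over the 6 libraries, though Psmd4 had the higher mean in HSCP (134 against 130.3 TPM). Psmd13 was at 126 and 134 TPM in HSCP and 94.1, 96.2, 104 and 98.3 TPM in the Ly6G+ libraries, vehicle first. The assembly chaperones Psmd5, Psmd9 and Psmd10 were lower, and Psmd9 did not exceed 18.2 TPM in any library.

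A pair of genes stood far below the rest. Psma8, the alpha subunit of the testis proteasome, was at 2.78 and 3.95 TPM in HSCP and at 1.07, 0.519, 0.808 and 0.974 TPM in Ly6G+. Psmd8 encodes Rpn12, an integral subunit of the lid, yet was at 1.61 and 2.54 TPM in HSCP, 5.76 and 1.71 TPM in Ly6G+ cells with vehicle, and 5.98 and 3.46 TPM in those with Mdivi-1. The other integral 19S non-ATPase subunits were at 42.1 TPM or more in every library. Psmd8 also had the widest spread between replicates of all 35 genes, with a difference of 1.32 on the log2 scale between the vehicle libraries, against a median of 0.05 over the 35 genes. In GENCODE M21, 97.9% of the 31-base words of Psmd8 occur in no other annotated gene. The level of Psmd8 given here is that of the authors' transcript index, which the sources used here do not name, and no reads were examined.

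**Figure D1:**
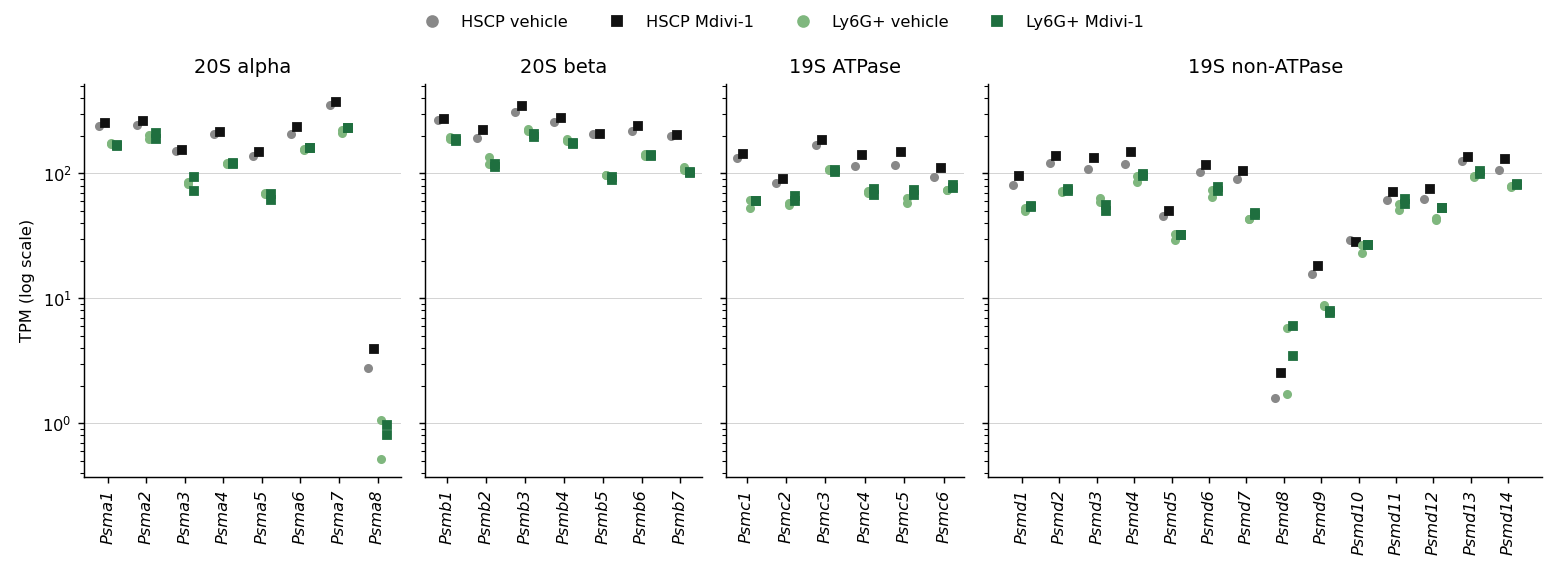
Level of each of the 35 proteasome genes in TPM (log axis) in the 6 libraries, by structural group. Circles are vehicle and squares Mdivi-1, grey and black for HSCP and green for Ly6G+. Psma8 and Psmd8 lie below 10 TPM in all libraries, and most other genes lie higher in HSCP than in Ly6G+ cells.

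Between the populations, 33 of the 35 proteasome genes were lower in Ly6G+ cells than in HSCP and 0 were higher (limma, adjusted p under 0.05). Over all 12338 genes tested the corresponding background was 50.3% lower and 22.2% higher, so many genes were lower in Ly6G+ cells on this scale. The median difference of the 35 genes, on the scale of log2(TPM + 1), was -0.70, against -0.35 for all genes tested. All 4 Ly6G+ libraries lay below both HSCP libraries for 33 of the 35 genes, against 52.5% of all genes tested. The calls depended on the scaling of the libraries. After median-of-ratios scaling, which moved the median of all genes to -0.03, 26 genes were lower and 0 higher, with a median of -0.33, against a background of 34.7% lower and 33.1% higher. After upper-quartile scaling 29 were lower and 0 higher, against 36.9% and 31.7%. The 8 neutrophil marker genes summed to 95388 and 86278 TPM in HSCP and to between 253153 and 264205 TPM in Ly6G+ cells, and the part of such abundant transcripts in the lower TPM of other genes was not tested. Of all genes called, 30.6% were higher in Ly6G+ cells, which became 48.8% on median-of-ratios factors and 46.3% on upper-quartile factors.

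In the alpha ring all 8 genes were lower in Ly6G+ cells, and 6 of them remained lower after median-of-ratios scaling. Psma5, an alpha subunit of the ring, was at 138 and 148 TPM in HSCP and 69.7, 68.7, 61.2 and 67.8 TPM in Ly6G+, a log2 difference of -1.08 (SE 0.08, limma adjusted p = 4.00e-05). Psma8, the lowest alpha gene, differed by -1.24 (SE 0.19, limma adjusted p = 0.00111) at levels under 4 TPM. It passed the filter of this fit through its HSCP libraries, since in Ly6G+ cells only the first vehicle library reached 1 TPM. Its call, counted among the 8 and the 6 here, is therefore not evidence apart from that filter. The same holds where it is counted among the 33 of all 35 genes called, the 26 after median-of-ratios scaling and the 33 without overlap. Psma2 had the smallest difference of the ring, -0.36, and on median-of-ratios factors it was at 0.01 (limma adjusted p = 0.944). Psma1, Psma3, Psma4, Psma6 and Psma7 lay between -0.86 (Psma3) and -0.48 (Psma6). The value of Psma3 is uncertain, because the pseudogene Gm13835 shares 16.2% of its 31-base words. Gm13835 was listed at 124 and 160 TPM in HSCP and 107 to 123 TPM in Ly6G+. The alpha sums given below include Psma3.

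In the beta ring all 7 genes were lower in Ly6G+ cells under both the deposited and the median-of-ratios scale. Psmb5, the chymotrypsin-like catalytic subunit, was at 207 and 207 TPM in HSCP, 97.3 and 97.3 TPM in Ly6G+ cells with vehicle, and 92.9 and 89.1 TPM in those with Mdivi-1. The Ly6G+ levels were less than 0.5 of the HSCP levels, with a log2 difference of -1.13 (SE 0.06, limma adjusted p = 1.51e-05). Psmb7, the trypsin-like subunit, was at 199.98 and 204 TPM in HSCP and 106, 113, 102 and 103 TPM in Ly6G+, a difference of -0.93 (SE 0.06, limma adjusted p = 3.35e-05). Psmb6, the caspase-like subunit, was at 219.7 and 238 TPM in HSCP and 138, 143, 138 and 141 TPM in Ly6G+, a difference of -0.70 (SE 0.06, limma adjusted p = 7.80e-05). Of the 3 catalytic subunits Psmb5 had the lowest value, though differences between subunits were not tested. Psmb1, Psmb2, Psmb3 and Psmb4 lay between -0.76 (Psmb2) and -0.52 (Psmb1). Only 28.3% of the 31-base words of Psmb5 occur in no other annotated gene, against 93.8% for Psmb6 and 88.7% for Psmb7, so reads of Psmb5 are harder to tell from those of other genes.

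All 6 ATPases were lower in Ly6G+ cells, 4 of them after median-of-ratios scaling. Psmc1 had the largest difference, with 132 and 143 TPM in HSCP and 53.0, 60.8, 59.9 and 59.9 TPM in Ly6G+, or -1.22 (SE 0.07, limma adjusted p = 2.34e-05). Psmc6, at 94.1 and 111 TPM in HSCP and 74.0, 73.1, 76.5 and 80.7 TPM in Ly6G+, had the smallest difference of the ring (-0.42). Psmc2, Psmc3 and Psmc4 lay between -0.82 (Psmc4) and -0.51 (Psmc2), and Psmc5 was at -1.0. The difference of Psmc6 did not pass on median-of-ratios factors (-0.06, limma adjusted p = 0.377).

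Among the 14 non-ATPase names 12 were lower, 9 of them after median-of-ratios scaling. Psmd7, a lid subunit and partner of the deubiquitinase Psmd14, was at 90.5 and 104 TPM in HSCP and 42.9, 43.2, 47.8 and 46.7 TPM in Ly6G+, a difference of -1.09 (SE 0.06, limma adjusted p = 1.74e-05). Psmd14, which cuts ubiquitin from substrates, was at 107 and 131 TPM in HSCP and 79.9, 78.4, 82.5 and 81.3 TPM in Ly6G+ (-0.55). Of the subunits that bind ubiquitin or its adaptors, Psmd2 was at 121 and 138 TPM in HSCP and 71.4 to 74.6 TPM in Ly6G+ (-0.83), and Psmd4 at 119 and 149 TPM in HSCP and 86.1 to 99.0 TPM in Ly6G+ (-0.50). Psmd4 did not pass on median-of-ratios factors (limma adjusted p = 0.0958). Psmd1, Psmd3, Psmd5, Psmd6, Psmd9, Psmd12 and Psmd13 lay between -1.08 (Psmd3) and -0.41 (Psmd13).

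The genes that did not pass were Psmd10, a base-assembly chaperone also called gankyrin, and Psmd8. Psmd10 was at 29.1 and 28.1 TPM in HSCP and 23.2, 26.5, 26.9 and 26.7 TPM in Ly6G+ (-0.14, limma adjusted p = 0.159). Psmd8 was above 0 at 0.69 (limma adjusted p = 0.147), and passed as higher without the second Ly6G+ vehicle library (0.96, limma adjusted p = 0.0234). Over all its alternatives the limma adjusted p of Psmd8 ran from 0.0234 to 0.368. Psmd11, a lid subunit, passed with the smallest difference, -0.22 (limma adjusted p = 0.0367). Its call was lost without either HSCP library, without the second Ly6G+ vehicle library or without the first Ly6G+ Mdivi-1 library, where its limma adjusted p lay between 0.0852 and 0.171. It was also lost with no expression filter, with a prior neither trended nor robust and with no treatment covariate, where it lay between 0.0627 and 0.0991. Its direction reversed after both other scalings.

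**Figure D2:**
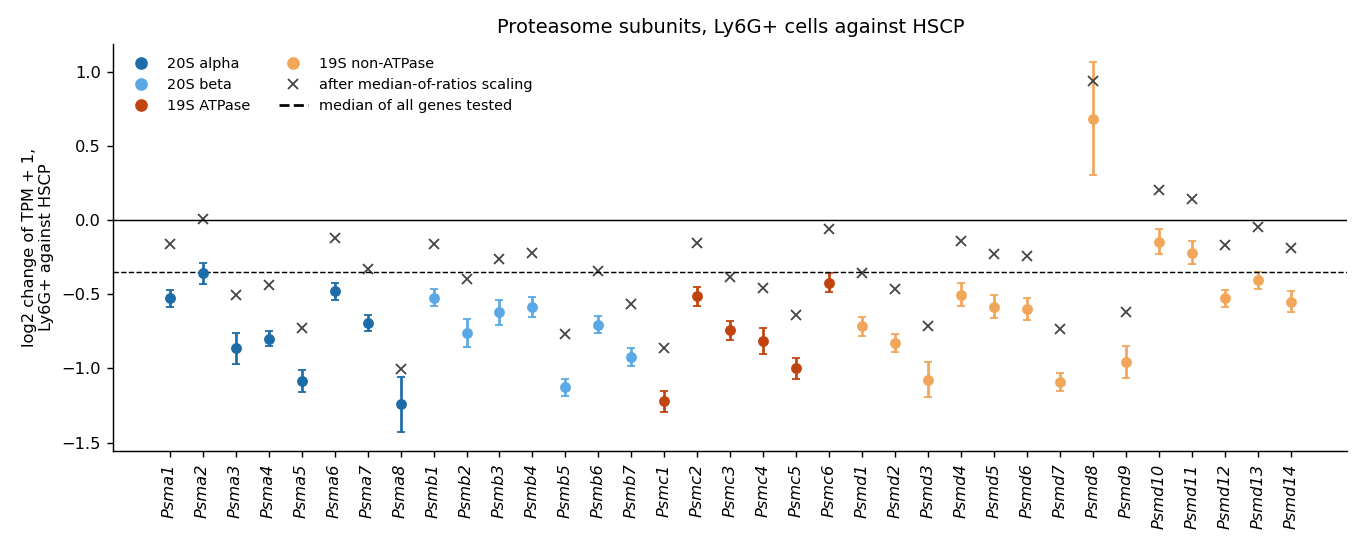
Difference of each proteasome gene between Ly6G+ cells and HSCP in log2(TPM + 1), with bars for the standard error of the fit over 6 libraries. Crosses give the same difference after median-of-ratios scaling and the dashed line the median of all genes tested (-0.35). Most circles lie below the dashed line, and Psmd8 lies above 0.

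The share of a gene in its structural group does not depend on the scaling of the library. Most of these shares did not overlap between the populations, and how often this occurs in other groups of genes was not measured. The genes given here had the largest and smallest population differences of their groups, Psma8 aside, so their shares were bound to move apart. Shares within a group also move against each other. Psmb5 made up a mean of 12.1% of beta TPM in HSCP and 9.05% ± 0.134 (SD, n = 4) in Ly6G+ cells. Psmb1 lay on the other side, at 15.8% in HSCP and 18.1% ± 0.488 (SD, n = 4) in Ly6G+ cells. In the alpha group Psma5 held 8.97% in HSCP and 6.54% ± 0.329 (SD, n = 4) in Ly6G+, while Psma2 held 15.9% and 19.3% ± 0.791 (SD, n = 4). In the ATPase group Psmc1 held 18.02% and 13.3% ± 0.650 (SD, n = 4), and Psmc6 13.4% and 17.4% ± 0.351 (SD, n = 4). For each of these genes the HSCP and Ly6G+ libraries did not overlap. Psma5 (39.0%) and Psmc1 (67.8%), like Psmb5, have a low share of 31-base words of their own. The ATPase to non-ATPase ratio of summed TPM, which was not among the planned comparisons, was 0.662 and 0.656 in HSCP. It was 0.574 to 0.598 in Ly6G+ (exact permutation p = 0.133, two-sided, the smallest that 2 against 4 libraries can give).

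Over all genes, the population difference varied with transcript length. Among genes with a mean of at least 10 TPM, the median difference was -0.51 for genes with a median protein-coding transcript of up to 1000 bases and -0.11 for those over 3000 bases. By this measure the median was 1058 bases in the alpha group, 859 in the beta group, 1559 in the ATPase group and 1408.5 in the non-ATPase group. The measure takes all annotated protein-coding transcripts of a gene, short ones included (659 bases for Psmd2). It need not be the length of the transcripts expressed. The part of length in the lower level of the proteasome genes was not tested.

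In Ly6G+ cells, 0 of 34 proteasome genes tested were called higher and 0 lower with Mdivi-1 (limma, adjusted p under 0.05). An unadjusted p under 0.05 was reached by 2 higher and 1 lower of the 34, against 3026 of all 11775 genes. Psma8 was left out because it did not reach 1 TPM in 2 of the 4 libraries. The background over 11775 genes was 2.46% higher and 4.24% lower, so a count of 0 among 34 genes is near it. Of all genes called, 36.8% were higher, which became 51.9% on median-of-ratios factors and 50.1% on upper-quartile factors. The median of the 34 genes was 0.03 on the log2(TPM + 1) scale, against -0.05 for all genes tested. A change above 0 was seen in 21 of 34, against 40.7% of all genes.

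Psmd12, a lid subunit known as Rpn5, came closest to the threshold. It was at 43.6 and 42.1 TPM in the vehicle libraries and 52.7 and 52.4 TPM with Mdivi-1, that is 42.9 ± 1.04 against 52.6 ± 0.220 TPM (SD, n = 2). The groups did not overlap, and the difference was 0.29 (SE 0.06, limma adjusted p = 0.0601). It passed on median-of-ratios factors (0.35, limma adjusted p = 0.0415), on upper-quartile factors (0.35, limma adjusted p = 0.0431) and when genes needed 5 TPM (0.29, limma adjusted p = 0.0471). The background of genes called higher under these settings was 3.33%, 3.22% and 3.81%, and 3.09% and 3.2% were called lower after the scalings. Its limma adjusted p over all alternatives ran up to 0.228, without the second vehicle library. In HSCP the same gene was at 62.9 TPM with vehicle and 75.4 TPM with Mdivi-1.

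Most genes with 19S names, the assembly chaperones Psmd5, Psmd9 and Psmd10 included, lay slightly above 0. Of 20 tested, 17 had a change above 0, and 11 had both Mdivi-1 libraries above both vehicle libraries, where the background was 21.0% of all genes. Psmc5, an ATPase, was at 58.1 and 63.4 TPM with vehicle and 67.3 and 73.4 TPM with Mdivi-1 (0.21, SE 0.08, limma adjusted p = 0.180). Psmd3, a lid subunit, lay in the other direction, at 58.7 and 63.6 TPM with vehicle and 55.7 and 50.02 TPM with Mdivi-1 (-0.21, SE 0.08, limma adjusted p = 0.198). Psmc3 had the lowest value of the ATPases at -0.04 and Psmd8 the highest of the non-ATPase names at 0.38, with an SE of 0.49. The share of all genes above 0 was 40.7% as deposited. With either other scaling 18 of 20 were above 0, against 51.2% of all genes after median-of-ratios and 50.5% after upper-quartile scaling.

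The beta subunits lay on the other side. All 7 had a change below 0, with a median of -0.10, and 5 had both Mdivi-1 libraries below both vehicle libraries, where the background was 36.7% of all genes. Most genes of the table also lay below 0 as deposited, since 40.7% of all genes tested lay above it, with a median of -0.05. Psmb3 had the lowest value, at 226 and 219 TPM with vehicle and 206 and 196 TPM with Mdivi-1 (-0.14, SE 0.06, limma adjusted p = 0.187). Psmb5 had a change of -0.10 (limma adjusted p = 0.344), Psmb7 of -0.10 (limma adjusted p = 0.354) and Psmb6 of -0.01 (limma adjusted p = 0.944). None of these passed the test. After either other scaling 5 of the 7 were below 0 and the median was -0.03 or -0.04, so the direction of the group was not the same for every gene under each scaling. Of the alpha subunits 4 of 7 lay above 0 as deposited, with a median of 0.00, from Psma5 at -0.10 to Psma7 at 0.10. After either other scaling 6 of 7 lay above 0, with medians of 0.07 and 0.06.

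Markers of other blood cells also moved with Mdivi-1 in the Ly6G+ libraries. Genes counted as fallen or risen here passed limma at an adjusted p under 0.05, where 4.24% of all genes were lower and 2.46% higher. The summed level of 9 B-cell genes was 141 and 142 TPM with vehicle and 22.4 and 23.2 TPM with Mdivi-1, and 8 of the 9 fell. Of 7 megakaryocyte genes 6 fell, from sums of 259 and 256 to 118 and 102 TPM. Of 6 mast cell and basophil genes 5 fell, from 485 and 492 to 163 and 172 TPM, and of 6 dendritic cell genes tested 4 fell, from 594 and 628 to 341 and 330.0 TPM. The neutrophil genes summed to 264205 and 255351 TPM with vehicle and 253153 and 263458 TPM with Mdivi-1, sums that S100a8 and S100a9 dominate. Of the 8, the granule genes Camp (-0.65), Ltf (-0.50) and Ngp (-0.52) fell and the late neutrophil genes Retnlg (0.51) and Mmp8 (0.30) rose. Of 7 progenitor genes tested 3 fell, with sums of 149 and 149.9 TPM against 116 and 109 TPM, and 2 of 7 erythroid genes fell, with sums of 1930 and 2021 TPM against 1513 and 1551 TPM. Of 6 monocyte genes 1 rose, and 0 of 6 T and NK cell genes and 0 of 4 eosinophil genes passed. After median-of-ratios scaling 4 mast cell and basophil genes and 2 progenitor genes fell, and the counts of the other marker lists stayed the same. None of the defining genes of these lists was at 0 in every library, and their part in the proteasome values was not tested.

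In HSCP, with 1 library per arm, there is no replicate check and no test. Of the 35 proteasome genes 34 were above 0 with Mdivi-1, and 32 of the 33 with a mean of at least 10 TPM, against 59.2% of all genes at that level. The median of these 33 was 0.14 and that of all such genes 0.04, with an upper quartile of 0.15 that 16 of the 33 reached. None differed by 2-fold or more at a mean of at least 10 TPM, where the background was 0.388% of genes higher and 0.538% lower. The spread between HSCP replicates was not measured. The HSCP arms also differed in markers of other cells, with sums of 76.7 and 48.7 TPM for B cells, 323 and 161 TPM for megakaryocytes, 677 and 378 TPM for eosinophils and 1136 and 714 TPM for dendritic cells with vehicle and Mdivi-1. Progenitor (622 and 570 TPM), mast cell and basophil (229 and 175 TPM) and T and NK cell sums (27.6 and 11.8 TPM) were lower too. Erythroid (3470 and 3595 TPM) and monocyte sums (629 and 686 TPM) were higher with Mdivi-1. Not every gene moved with its sum, as Pax5 of the B-cell genes and Flt3 of the dendritic cell genes were higher. All 8 neutrophil genes were lower in the Mdivi-1 library, from S100a9 (-0.08) to Ly6g (-1.04), with sums of 95388 and 86278 TPM. The part of these markers in the proteasome values was not tested.

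By group, the HSCP medians were 0.09 in alpha, 0.10 in beta, 0.18 in the ATPases and 0.20 in the non-ATPase names. Psmc5 was at 117 TPM with vehicle and 148 TPM with Mdivi-1 (0.33), and Psmd4 at 119 and 149 TPM (0.32). Psmb2, a structural beta subunit, was at 193 and 222 TPM (0.20), the largest value of its ring. Psmb5 was at 207 TPM in both libraries (0.00). The largest value among genes above 10 TPM was that of Psmc5, and Psmd10 had the only value below 0 (-0.05). Psma8 and Psmd8 had 0.39 and 0.44, at levels under 4 TPM. After median-of-ratios scaling 14 of 15 core genes and 19 of 20 genes with 19S names, assembly chaperones included, were above 0.

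The difference between the HSCP and the Ly6G+ responses to Mdivi-1 was tested over 12338 genes as an interaction, chosen after the values were seen. With 1 library in each HSCP arm, all residual spread of this fit came from the Ly6G+ libraries, and HSCP was assumed to vary like them. No gene passed (limma, adjusted p under 0.05), with 1398 genes at an unadjusted p under 0.05. Among the 35 proteasome genes 3 had an unadjusted p under 0.05, of which Psmd3 was the largest (0.49, SE 0.14, limma adjusted p = 0.362). The other 2 were Psmb3 (0.31, limma adjusted p = 0.384) and Psmd14 (0.24, limma adjusted p = 0.441).

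**Figure D3:**
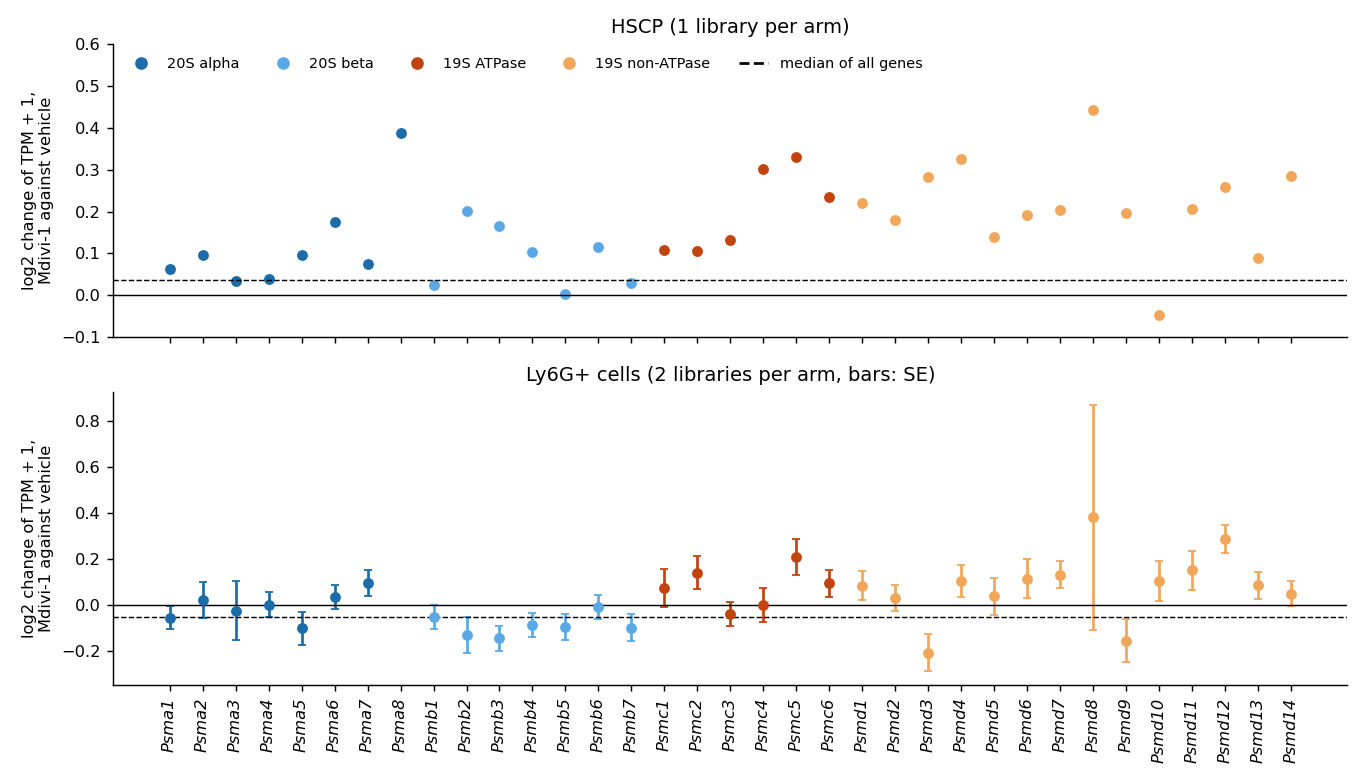
Change of each proteasome gene with Mdivi-1 in log2(TPM + 1), in HSCP (upper panel, 1 library per arm) and in Ly6G+ cells (lower panel, 2 libraries per arm, bars are standard errors). Dashed lines are the medians of all genes (0.04 and -0.05). In the lower panel the 7 beta subunits lie below 0, and 17 of the 20 genes with 19S names, assembly chaperones included, lie above it.

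The balance of particle and core was compared as a ratio of summed TPM, which does not depend on the scaling of a library. This ratio was chosen after the values were seen. The 19S sum includes the assembly chaperones Psmd5, Psmd9 and Psmd10. It was 0.557 of the 20S sum in HSCP with vehicle and 0.606 with Mdivi-1, 8.68% more. In Ly6G+ cells the ratio was 0.556 and 0.548 with vehicle and 0.603 and 0.590 with Mdivi-1, a mean of 0.552 ± 0.00550 against 0.597 ± 0.00936 (SD, n = 2), 8.11% more. The Mdivi-1 libraries lay above the vehicle libraries in both populations, and an exact permutation test in Ly6G+ gave p = 0.333, two-sided, the smallest that 2 against 2 libraries can give. On the log2 scale the change was 0.12 in HSCP and 0.11 in Ly6G+, and leaving out each Ly6G+ library in turn gave 0.10 to 0.13. As a difference of the group medians of log2(TPM + 1), it was 0.04 and 0.06. Over all genes, the median change with Mdivi-1 was -0.05 to -0.03 in Ly6G+ and 0.03 to 0.04 in HSCP in each of 5 bins of transcript length. Within the core, the alpha to beta ratio in Ly6G+ cells was 0.952 and 0.943 with vehicle and 0.983 and 1.05 with Mdivi-1. This was 7.52% more, again without overlap and with an exact permutation p = 0.333. This ratio was not among the planned comparisons either. It draws on the same libraries as the group changes given above, so its lack of overlap is not separate support. In HSCP the alpha to beta ratio was 0.934 with vehicle and 0.927 with Mdivi-1.

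The sums behind these ratios were compared group by group. In HSCP all 4 groups had a higher sum with Mdivi-1, with alpha at 1545 and 1639 TPM, beta at 1654 and 1768 TPM, ATPases at 711 and 818 TPM and non-ATPase names at 1073 and 1246 TPM. In Ly6G+ cells the beta sum was 1064 and 1083 TPM with vehicle and 1015 and 1002 TPM with Mdivi-1. The ATPase sum was 423 and 431 TPM with vehicle and 443 and 454 TPM with Mdivi-1, and the non-ATPase sum 731 and 722 TPM against 771 and 762 TPM. The alpha sums overlapped, at 1013 and 1021 TPM against 997 and 1057 TPM. Over the 4 sums and both comparisons the exact permutation p-values adjusted to 0.381 for the beta, ATPase and non-ATPase sums with Mdivi-1, 1 for the alpha sum and 0.267 for each between populations. Before adjustment the exact permutation p cannot fall below 0.333 for 2 against 2 libraries or 0.133 for 2 against 4. No sum could therefore reach 0.05, and these values do not show that the sums were alike. The 35 genes together held 0.517% and 0.566% of TPM in HSCP and 0.330% to 0.335% in Ly6G+.

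Psmb8 takes the place of Psmb5 in the immunoproteasome. It was at 331 and 318 TPM in HSCP, 261 and 266 TPM in Ly6G+ cells with vehicle, and 218 and 222 TPM in those with Mdivi-1. The Psmb8 to Psmb5 ratio lay higher in every Ly6G+ library, at 2.68 and 2.73 with vehicle and 2.35 and 2.49 with Mdivi-1, than in HSCP, at 1.60 and 1.54 (exact permutation p = 0.133, the smallest possible, adjusted to 0.444 over 4 comparisons). In Ly6G+ cells Psmb8 itself fell with Mdivi-1 by 0.26 (SE 0.05, limma adjusted p = 0.0483), and this call was lost on median-of-ratios factors (-0.19, limma adjusted p = 0.0890). Psmb10, the partner of Psmb7, was at 122 and 113 TPM in HSCP and 62.9, 70.3, 56.0 and 52.3 TPM in Ly6G+. The Psmb10 to Psmb7 ratio was 0.612 and 0.556 in HSCP, 0.591 and 0.622 in Ly6G+ cells with vehicle, and 0.552 and 0.508 in those with Mdivi-1, so the populations overlapped (exact permutation p = 0.800). Psmb9 was not analysed here, and Psmb11, the thymic subunit, did not exceed 0.357 TPM.

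**Figure D4:**
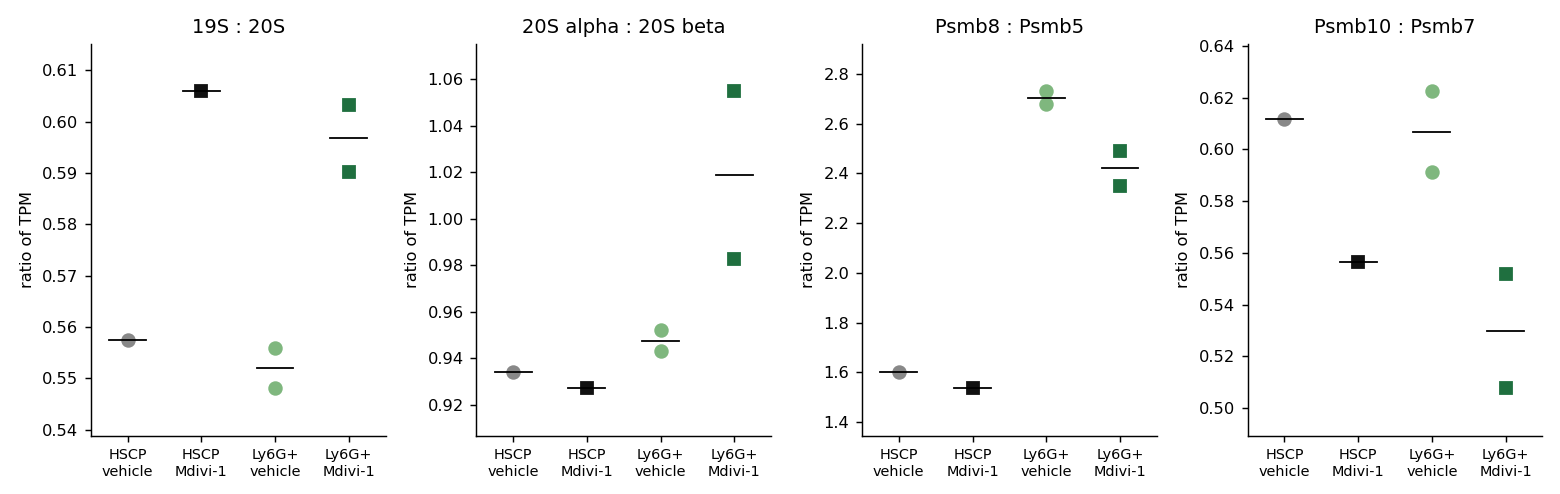
Ratios of TPM within each library, with 1 point per library and lines at the mean of each group; axes do not start at 0. From left to right: summed 19S to summed 20S genes, alpha to beta, Psmb8 to Psmb5 and Psmb10 to Psmb7. The 19S to 20S ratio is 0.548 to 0.557 with vehicle and 0.590 to 0.606 with Mdivi-1.

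Other genes of the pathway were counted whole from lists by function, to be read against the 50.3% of all genes lower and 22.2% higher in Ly6G+ cells, or 34.7% and 33.1% after median-of-ratios scaling. Of 5 assembly chaperones tested, all 5 were lower in Ly6G+ cells than in HSCP and 4 after median-of-ratios scaling, with a median of -1.36. Psmg2, which pairs with Psmg1 to build the alpha ring, was at 49.9 and 60.8 TPM in HSCP and 15.6 to 17.8 TPM in Ly6G+, while Pomp, which helps to assemble the beta ring, was at 215 and 203 TPM in HSCP and 153 to 171 TPM in Ly6G+. Of 8 further regulatory particle subunits and bound factors, 7 were lower, among them the ubiquitin receptor Adrm1 (-0.94) and the deubiquitinases Uchl5 (-0.81) and Usp14 (-0.86). Of 6 activators and inhibitors, 2 were higher and 3 lower, and of 14 genes of ubiquitin and its activation 1 was higher and 11 lower. After median-of-ratios scaling these counts were 2 higher and 5 lower for the bound factors, 2 higher and 1 lower for the activators and inhibitors, and 2 higher and 7 lower for the ubiquitin genes.

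With Mdivi-1 in Ly6G+ cells 0 genes of these 4 lists passed. Of all genes tested 2.46% were called higher and 4.24% lower, or 3.33% and 3.09% after median-of-ratios scaling, so so few calls are near the background. Psme1, a subunit of the interferon-inducible PA28 activator, came closest, at 237 and 249 TPM with vehicle and 300.1 and 289 TPM with Mdivi-1 (0.28, limma adjusted p = 0.0533). After median-of-ratios scaling Psme1 passed (limma adjusted p = 0.0272), as did the ubiquitin gene Rps27a (limma adjusted p = 0.0447). Of 8 genes that control the transcription of subunits 1 fell. This was Keap1, the adaptor that marks Nfe2l2 for degradation, at 25.2 and 24.3 TPM with vehicle and 18.9 and 18.97 TPM with Mdivi-1 (-0.37, SE 0.07, limma adjusted p = 0.0483), and it was not called on median-of-ratios factors (-0.31, limma adjusted p = 0.0743). Nfe2l1, the activator of subunit genes, was at 31.7 and 34.5 TPM with vehicle and 27.3 and 26.1 TPM with Mdivi-1 (-0.30, limma adjusted p = 0.0880). In HSCP Nfe2l1 was at 47.7 and 36.7 TPM. Bach1, a repressor that competes for the same elements, was at 50.9 and 48.7 TPM with vehicle and 63.3 and 60.4 TPM with Mdivi-1 (0.31, limma adjusted p = 0.0588), and passed after median-of-ratios scaling (0.37). Between populations 3 of 9 genes of this list were higher in Ly6G+ cells and 3 lower, with Bach1 higher by 1.24 and Nfe2l1 lower (-0.48), against 6 higher and 2 lower after median-of-ratios scaling.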

How the data were processed

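RNA of 6 sorted mouse bone marrow libraries was measured by sequencing. The authors deposited 1 table of TPM values, made with bcl2fastq, CASAVA 1.8 and kallisto on mm10, per the submitters' processing notes; the sources used here name neither kallisto's version nor its index. The depth behind the TPM values is unknown, so counting error cannot be stated. Identifiers were matched to GENCODE M21. limma 3.58.1 in R 4.3.3 was fitted to log2(TPM + 1) with its trend and robust options. A gene entered a fit if 2 or more of its libraries reached 1 TPM. Benjamini-Hochberg adjustment ran over all genes of the fit (threshold 0.05). The log scale understates changes of low genes. The Ly6G+ treatment fit used 4 libraries (2 residual degrees of freedom). The population fit used 6 libraries with treatment as a covariate (3 residual degrees of freedom). The HSCP arms, with 1 library each, gave log2 ratios only. Sums and ratios were compared by exact permutation of libraries. The test was checked on simulated tables. Words of 31 bases shared between annotated transcripts were counted for each gene. Alternatives were the pseudocount, the filter, median-of-ratios and upper-quartile scaling, the prior, each library left out and a replicate block. Full values were given for the most and least abundant gene of each group, the largest change in each comparison and group, the catalytic subunits, Psmd2, Psmd4 and Psmd14. Members, lists and rules were chosen with earlier results of these data known. Protein sequences were not used here.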

Additional observations from a re-analysis of the deposited data

How the results depend on the processing

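Each proteasome gene's call for Mdivi-1 in Ly6G+ cells was kept under the alternatives run, except for Psmd12, so the number called higher was 1 with the filter at 5 TPM, with median-of-ratios scaling and with upper-quartile scaling. The number of all genes called, 789, was less stable: 218 without a filter, 346 with a prior neither trended nor robust and 22 to 279 when each library was left out, where the lone library of an arm is assumed to vary like the others. With the replicate number as a block 325 genes were called and 0 proteasome genes. The deviations of same-numbered libraries correlated at -0.031 over 11775 genes. The labels do not say whether same-numbered libraries are paired, and this single value cannot settle it. Between populations, 0 to 1 proteasome genes were called higher when each library was left out. After median-of-ratios scaling Psma2 was at 0.0064 and Psmd11 at 0.14, and Psmd11 was at 0.093 after upper-quartile scaling, all reversed. Over all single proteasome genes and alternatives between populations, 470 results kept their call, 15 lost it, 1 gained it and 3 reversed. The log2 differences of the sums between populations became, after median-of-ratios and upper-quartile scaling, -0.27 and -0.32 for alpha (-0.53 with genes of at least 80% unique 31-base words), -0.35 and -0.40 for beta, -0.44 and -0.48 for ATPases and -0.27 and -0.32 for non-ATPase names. For Mdivi-1 in Ly6G+ they became 0.079 and 0.074 for alpha, -0.025 and -0.029 for beta (-0.073 with the unique genes), 0.13 and 0.13 for ATPases and 0.14 and 0.14 for non-ATPase names. As a difference of medians, the 19S to 20S change was 0.042 in HSCP and 0.057 in Ly6G+. Alternatives for this ratio were chosen after seeing the data. The causes of these shifts were not tested. The planned pair of Psmb9 and Psmb6 and the planned protein lengths and identities were not run. Depth is unknown, so the precision rests on the few libraries.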

Other observations

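Psma3 shares 16.2% of its 31-base words with the pseudogene Gm13835, which was listed at 124 and 160 TPM in HSCP with vehicle and Mdivi-1, 110 and 107 TPM in Ly6G+ cells with vehicle, and 123 and 111 TPM in those with Mdivi-1. Psma3 itself was at 150.5 and 154 TPM in HSCP, 82.1 and 86.0 TPM in Ly6G+ cells with vehicle, and 72.6 and 93.9 TPM in those with Mdivi-1. The pseudogene lay above Psma3 in all 4 Ly6G+ libraries and below it in HSCP vehicle. The split of reads between this gene and its copy is uncertain.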
